A study of Homo sapiens with 22 samples.

Results

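NGFR, BDNF, NTF3, SORT1, NTRK2 and NTRK3, 6 genes of neurotrophin signaling, were followed in melanoma cells through changes of cell state, through 3 treatments and through the chromatin of sorted cells. The genes were taken by symbol, and each symbol matched 1 row of the gene lists. They are 6 of 33538 genes counted in the first single-cell experiment and 6 of 36601 genes in the second and in the third. Neurotrophins are secreted growth factors that act through Trk receptor kinases and through p75NTR, the receptor that NGFR encodes. BDNF encodes a ligand of TrkB, which NTRK2 encodes, and NTF3 encodes the main ligand of TrkC, which NTRK3 encodes. SORT1 encodes sortilin, a sorting receptor that binds pro-neurotrophins together with p75NTR. NGFR is known as a surface marker of neural crest cells and of melanoma cells that have lost melanocyte features.

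The first experiment profiled WM989, a BRAF V600E mutated human melanoma cell line, by scRNA-seq. The cells were untreated, carried transcribed lineage barcodes from a lentiviral library, and had been sorted either as EGFR/NGFR-high cells or as a mixed population before they expanded. The 12531 cells came from 8 wells of the microfluidic chip, 4 in replicate r1 (wells 1 to 4) and 4 in replicate r2 (wells 5 to 8). Which wells held sorted cells was not in the labels used here, and sorted cells were split over chip wells, so the wells are not independent cultures. The second experiment held 1449 untreated cells of a second melanoma cell line, WM983B, in 1 library. The third held 40021 WM989 cells in 8 libraries, with 4 treatments in each of 2 replicates: Control (untreated), TGFB1 (recombinant transforming growth factor beta), TGFBRi (LY2109761, a TGFB receptor inhibitor) and PI3Ki (GDC-0941, a PI3K inhibitor). These cells also carried lineage barcodes and were expanded before treatment, which lasted 5 days by the study's methods. The cells of a well were split over the plates of the 4 treatments, so libraries of the same replicate share a starting culture, and the 3 treatments share the same Control libraries. In the sample labels these replicates are Mix and Primed and in the cell labels r1 and r2, and the labels do not tie one pair of names to the other. ATAC-seq, an assay of open chromatin, was made on untreated WM989 cells right after sorting into EGFR_High, NGFR-High, EGFR-NGFR-High and Mix, the last negative for both markers by the study's methods, with 3 libraries per sort. Nothing used here says whether the replicates of a sort came from separate cultures, so p-values measure the spread between these libraries, which may be technical.

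The authors' cell labels call clusters 2, 8 and 9 of the first experiment primed (2843 cells), clusters 0 and 2 of WM983B (731 cells) and clusters 4 and 10 of the third experiment (4077 cells). Primed is the study's name for the state from which cells more often survive targeted therapy, and the other cells are called drug-susceptible. Since the states were called from the same counts, a difference between states is a description and was not tested. NGFR protein was also used to sort part of the first experiment and the ATAC-seq libraries. Levels are given as CPM, the counts of unique molecular identifiers (UMIs) of a gene scaled to the UMIs of all genes in the group, with 95% exact Poisson intervals that cover counting error only. Where a gene had no UMI, the level that 3 counts would give is printed as its limit. Libraries held 3.59e+07 to 1.77e+08 UMIs in the first experiment, 1.03e+08 in WM983B and 7.02e+07 to 1.22e+08 in the third. The third experiment was shallower per cell, with a median of 13013 to 21720.5 UMIs per library against 45287 to 111820 in the first. Melanocyte identity genes summed to 4936 CPM in drug-susceptible and 253 CPM in primed cells of the first experiment, and all 6 were detected in both states. Markers of leukocytes and epithelial cells summed to at most 0.0645 CPM in either state, with 1 gene of each list at 0 in each state. The 3 endothelial markers summed to 25.3 CPM in the primed state against 0.498 CPM outside it. Of these PECAM1 gave 22.8 CPM in primed cells, VWF 2.47 CPM and CDH5, a defining gene, 0.0052 CPM. The 3 neuron markers summed to 10.5 CPM against 0.406 CPM. SNAP25 gave 10.4 CPM in primed against 0.272 CPM in drug-susceptible cells, and STMN2 was at 0 in primed cells. Of 7 genes of the neural crest stem-like melanoma list, which summed to 315 and 213 CPM, AQP1 and L1CAM were higher in primed cells (19.4 against 0.122 CPM and 286 against 107 CPM), ERBB3, RXRG and FOXD3 were lower (7.48 against 84.5, 1.34 against 20.1 and 0.135 against 1.14 CPM), and GFRA2 and SOX2 had at most 7 UMIs in either state. The part of these markers in the state differences was not tested. A cell barcode sequence was found in more than 1 well for 38 cells of the first experiment and in more than 1 library for 388 cells of the third. Those cells held 10 of 6390 NGFR UMIs and 44 of 6607 BDNF UMIs in the first experiment, and 33 of 2283 NGFR UMIs and 0 of 199 BDNF UMIs in the third.

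The sequences shown are of the 2 upstream regions of NGFR that were higher in NGFR-sorted libraries and had a peak in at least 3 of the 6 other libraries. NGFR lies on chromosome 17 of hg38 from 49495293 to 49515008 on the forward strand. Each sequence is 300 bases of the forward strand around the summit of the region's highest peak, and both lie outside annotated genes that carry a symbol. The distance given for a region is from the gene start to the nearer edge of the whole region, and the printed windows lie further upstream than that edge. Capitals mark CAGAC, the core of the SMAD binding motif, and ACAAAG, a SOX motif, on either strand.

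Region 40730 bp upstream, chr17:49454074-49454373: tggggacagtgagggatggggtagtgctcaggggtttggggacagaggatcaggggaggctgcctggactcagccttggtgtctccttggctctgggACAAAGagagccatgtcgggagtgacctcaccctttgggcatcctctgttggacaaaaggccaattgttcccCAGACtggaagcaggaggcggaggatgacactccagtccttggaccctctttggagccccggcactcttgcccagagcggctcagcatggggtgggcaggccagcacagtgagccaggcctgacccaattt

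Region 38029 bp upstream, chr17:49456283-49456582: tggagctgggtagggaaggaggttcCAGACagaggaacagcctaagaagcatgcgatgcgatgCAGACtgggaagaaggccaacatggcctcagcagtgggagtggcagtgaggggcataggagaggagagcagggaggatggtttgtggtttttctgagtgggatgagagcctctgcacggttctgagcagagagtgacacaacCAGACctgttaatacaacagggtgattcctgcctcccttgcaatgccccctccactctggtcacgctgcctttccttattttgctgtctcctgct

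The first of these windows holds 1 match to CAGAC and 1 to ACAAAG, and the second holds 3 to CAGAC. Of 151821 windows of the same length over all open regions of this experiment, 48.6% hold at least 1 match to CAGAC and 27.9% at least 1 to ACAAAG. Neither window holds AP-1 (TGACTCA), TEAD (GGAATG), MITF-type E-box (CATGTG or CACGTG) or NF-kB matches on either strand. A match is a description of the letters and not a site of binding.

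In WM989, NGFR and BDNF were high in the primed clusters and SORT1 was lower there than in any other cluster, while NTRK2, NTRK3 and NTF3 were under 1 CPM in every cluster. For NGFR, the 3 primed clusters had 34.4 CPM (32.4 to 36.5) in cluster 8, 33.8 CPM (32.2 to 35.5) in cluster 9 and 27.3 CPM (26.3 to 28.2) in cluster 2. Clusters 8 and 9 do not differ beyond counting error, and in replicate r1 their order was the reverse, with 21.6 CPM in cluster 8 and 40.5 CPM in cluster 9 against 53.9 and 29.1 CPM in r2. The next cluster was drug-susceptible cluster 10, with 6.44 CPM (5.46 to 7.53). This value differed between replicates, with 2.67 CPM in r1 and 19.6 CPM in r2, and 28 of 466 cells of that cluster held its 155 NGFR UMIs. The remaining 7 clusters lay between 0.271 and 1.73 CPM. In all 8 drug-susceptible clusters NGFR was higher in r2 than in r1.

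BDNF had another order among the primed clusters. It was highest in cluster 2, with 41.4 CPM (40.3 to 42.6), followed by cluster 9 with 24.3 CPM (22.9 to 25.7) and cluster 8 with 19.4 CPM (17.9 to 21.0). These intervals do not overlap, and cluster 2 was highest in both replicates. Every drug-susceptible cluster lay under 1 CPM of BDNF, between 0.102 and 0.782 CPM, including cluster 10, where 3 BDNF UMIs were found beside the 155 of NGFR. SORT1 ran the other way, with 18.6, 21.1 and 23.2 CPM in clusters 9, 2 and 8 and 36.6 to 51.7 CPM in the drug-susceptible clusters. SORT1 was higher in r2 than in r1 in every cluster, and within each replicate the primed clusters were the lowest.

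**Figure D1:**
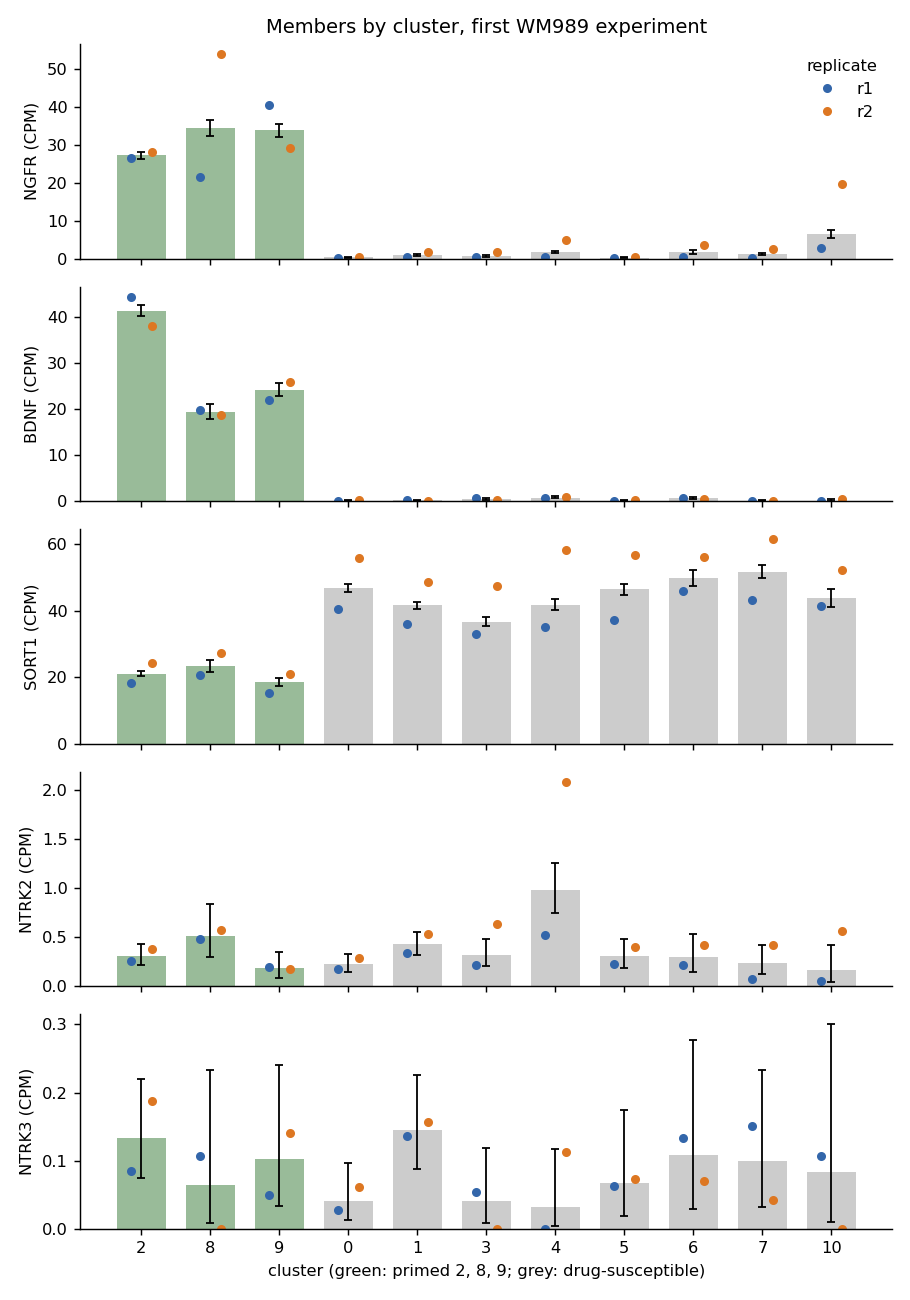
Level of 5 of the 6 genes (CPM) in the 11 clusters of the first WM989 experiment. Bars are all cells of a cluster with 95% exact Poisson intervals and points the replicates r1 and r2. NGFR and BDNF stand out in primed clusters 2, 8 and 9, where SORT1 is lowest, and the panels of NTRK2 and NTRK3 have much smaller scales.

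Over both replicates primed cells had 30.1 CPM of NGFR, where the drug-susceptible cells had 1.1 CPM. By well the primed cells had 34.1, 26.7, 28.5 and 29.2 CPM of NGFR in wells 1 to 4 and 26.2, 31.4, 42.8 and 46.0 CPM in wells 5 to 8. The drug-susceptible cells of the same wells had 0.403, 0.283, 0.571 and 0.328 CPM of NGFR and then 3.69, 1.40, 2.28 and 2.09 CPM. The states did not overlap in any well, and the 4 wells of r2 had the higher drug-susceptible values. The ratio of the states was 70.1 in r1 and 14.3 in r2.

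BDNF, at 33.5 CPM in primed cells, was at 0.286 CPM in the others. This is a ratio of 117 over all cells, 111 within r1 and 133 within r2. Primed cells had 40.3, 37.7, 19.1 and 19.9 CPM of BDNF in wells 1 to 4 and 35.1, 35.3, 14.8 and 16.8 CPM in wells 5 to 8. In both replicates the first pair of wells was near 40 CPM or 35 CPM and the second pair under 20 CPM. The same first pairs had the higher BDNF in drug-susceptible cells, with 1.44, 1.2, 1.94 and 0.467 CPM in wells 1, 2, 5 and 6 against 0.0966 to 0.131 CPM in wells 3, 4, 7 and 8. Wells 1, 2, 5 and 6 held 256, 1059, 325 and 447 primed cells beside 194, 639, 83 and 134 others. Wells 3, 4, 7 and 8 held 126, 263, 196 and 171 beside 1475, 3578, 1941 and 1644. Most of the pooled primed cells thus came from wells 1, 2, 5 and 6. The study describes its mixed sample as mainly drug-susceptible, so these are likely the wells of the EGFR/NGFR-high sort, though the labels do not name them. The part of the sort and of this mix in the BDNF levels was not tested. Averaged over wells with equal weight, the BDNF ratio was 39.8. SORT1 had 44.1 CPM in drug-susceptible against 20.8 CPM in primed cells (ratio 0.472). Its primed wells lay between 17.4 and 29.5 CPM and its drug-susceptible wells between 36.5 and 65.0 CPM, so the groups did not overlap.

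The receptor genes NTRK2 and NTRK3 had low levels in both states. NTRK2 had 0.312 CPM in primed cells against 0.380 CPM in the others, a ratio of 0.823 that was 1.12 in r1, 0.587 in r2 and 0.482 with wells weighted equally (0.281 against 0.583 CPM), and drug-susceptible cluster 4 was the highest cluster with 0.978 CPM (0.746 to 1.26), from 0.527 CPM in r1 and 2.08 CPM in r2. NTRK3 had 0.114 CPM (22 UMIs) in primed cells against 0.0788 CPM (44 UMIs), a ratio of 1.45 that was 0.991 with wells weighted equally. NTF3, the TrkC ligand, was represented by 2 UMIs in all, both in primed cells of well 5.

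NGFR UMIs were unevenly spread over primed cells. Of primed cells 44.5% held an NGFR UMI, at a median depth of 58253 UMIs, and of drug-susceptible cells 2.46% did, at 52835 UMIs. With each cell thinned to 10000 UMIs, NGFR was found in 18.1% of primed cells, where an even spread of the same UMIs would give 25.4%. In primed cells 175 cells, or 6.16% of them, held 50% of the NGFR UMIs, and the highest cell had 68. For BDNF the thinned share was 24.7% against 28.1% for an even spread, and for SORT1 it was 18.6% against 19.2%. In drug-susceptible cells, 25 of 9688 cells held 50% of the NGFR UMIs. The thinned share of NGFR in drug-susceptible clusters lay between 0.255% in cluster 5 and 2.52% in cluster 10. These cultures hold no cell type that should lack NGFR or BDNF, so the share that free RNA gives was not measured, and a UMI in a drug-susceptible cell is not read here as expression.

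NGFR and BDNF were not found together in primed cells more often in every well. After thinning, BDNF was found in 26.7, 26.5, 18.8 and 19.4% of NGFR-positive primed cells of wells 1 to 4, and in 30.7, 30.3, 14.8 and 15.3% of NGFR-negative ones. In wells 5 to 8 the shares were 20.5, 26.4, 11.2 and 14.2% of NGFR-positive cells and 26.4, 26.6, 13.2 and 13.1% of NGFR-negative cells. BDNF was the more frequent in NGFR-positive cells of 3 wells (3, 4 and 8) and the less frequent in 5. Thinning counts many primed cells that hold an NGFR UMI at full depth as NGFR-negative, which brings the shares of the groups closer together. Within primed cells BDNF differed with cell cycle phase, with 37.6 CPM in G1, 24.8 CPM in G2M and 22 CPM in S phase. NGFR had 29.2, 30.8 and 34.4 CPM in the same phases, and SORT1 lay between 19.4 and 21.2 CPM. These phases are the authors' calls from the same counts.

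The cluster profiles most like those of NGFR, by Pearson's r of log2(CPM + 1) over the 11 clusters, were MMP1 (0.984), FSCN1 (0.984), SCG2 (0.981), NEK11 (0.981) and ANXA1 (0.978). Over the 13 clusters of the third experiment 4 of these kept an r of at least 0.884, and NEK11 had 0.558. For BDNF the first 5 were SPOCK1, LMO7-AS1, AQP1, IFI44L and COL1A1, with r from 0.995 to 0.996 in the first and from 0.577 to 0.71 in the third experiment. For SORT1 they were ZNF330, MCAM, ROPN1, GPR143 and SFXN4, with r from 0.982 to 0.992 and from 0.783 to 0.888. NGFR and BDNF had an r of 0.922, NGFR and SORT1 of -0.894, and BDNF and SORT1 of -0.957, with 0.890, -0.568 and -0.539 in the third experiment. BDNF stood at place 456 among the genes most like NGFR. The clusters share libraries and depth, 10839 genes were compared, and r is given as a description.

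WM983B cells showed the same direction for NGFR, BDNF and SORT1 with smaller differences. NGFR was at 56.1 CPM (54.0 to 58.2) in primed cells against 12.3 CPM (11.4 to 13.3), so the ratio was 4.56. By cluster the level was 58.1 CPM in primed cluster 0, 42.5 CPM in primed cluster 2, 30.3 CPM in drug-susceptible cluster 3 and 9.39 CPM in drug-susceptible cluster 1. These 4 intervals do not overlap, and both primed clusters lay above both drug-susceptible ones. BDNF was at 9.85 CPM in primed cells against 4.69 CPM (ratio 2.1), with 9.23 and 14.0 CPM in clusters 0 and 2 and 4.27 and 7.35 CPM in clusters 1 and 3. The intervals of BDNF in clusters 0 and 3 overlap.

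In WM983B SORT1 was lower in primed cells, at 45.6 CPM against 62.1 CPM (ratio 0.734). Drug-susceptible cluster 3 was with the primed clusters for SORT1, at 43.6 CPM against 45.7 and 44.6 CPM, and cluster 1 stood apart at 65.1 CPM. In primed WM983B cells BDNF was 14.8 CPM in G1, 11.9 CPM in S and 3.20 CPM in G2M phase, while NGFR was highest in S phase with 72.2 CPM. NTRK2 was at 1.19 CPM against 0.983 CPM and NTRK3 at 0.225 CPM against 0.297 CPM in primed and other cells, with overlapping intervals for each gene. No UMI of NTF3 was found, which allows up to 0.0614 CPM in primed cells by the limit of 3 counts. After thinning to 30000 UMIs 61.8% of primed cells and 23.0% of the others held an NGFR UMI. With 1 library these values have no replicate check.

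**Figure D2:**
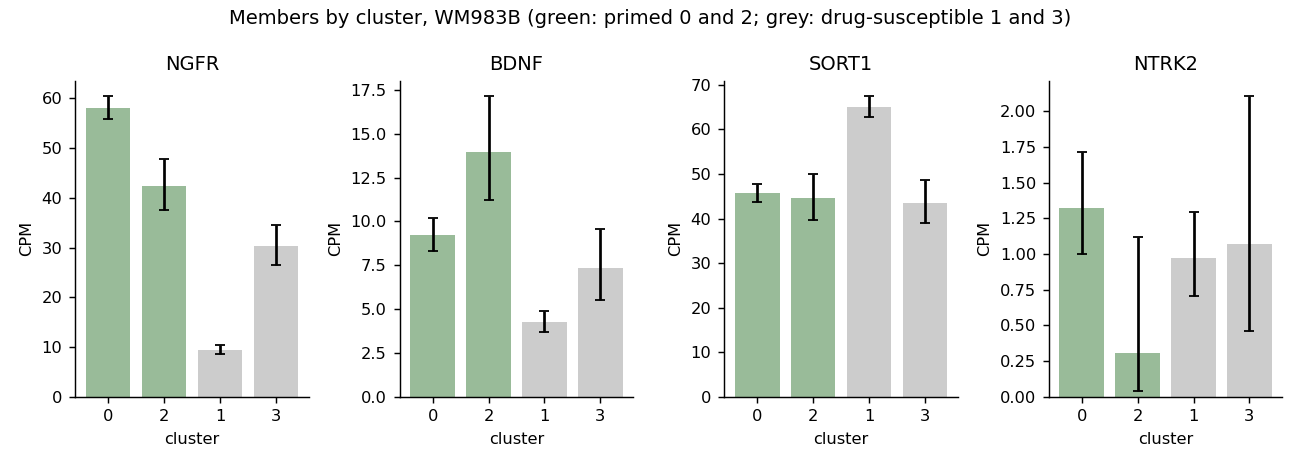
Level of NGFR, BDNF, SORT1 and NTRK2 (CPM) in the 4 clusters of WM983B. Bars are the cells of a cluster and error bars 95% exact Poisson intervals. Cluster 3, called drug-susceptible, lies between the primed clusters and cluster 1 for NGFR, with 30.3 CPM.

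The third experiment asked how TGFB1 and the inhibitors of its receptor and of PI3K change the states. Over all cells of a library, the receptor genes NTRK2 and NTRK3 were higher with TGFB1. NTRK3 was not tested within either state, where it had few UMIs. No change of NGFR, BDNF or SORT1 with TGFB1 passed the test over all cells, while PI3Ki lowered NGFR. Within primed cells, NGFR and BDNF were lower with TGFB1 than in Control, where primed cells lay mostly in another cluster. In edgeR's quasi-likelihood test, a gene was called at a Benjamini-Hochberg adjusted p under 0.05 over all genes tested. NTF3 had no UMI in any of the 8 libraries and was not tested, a count that allows up to 0.0427 CPM in the shallowest library by the limit of 3 counts.

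Over all cells, NGFR had 1.75 CPM in r1 and 6.33 CPM in r2 of Control. It had 1.89 and 5.35 CPM with TGFB1, 2.17 and 8.16 CPM with TGFBRi and 0.370 and 0.939 CPM with PI3Ki. The PI3Ki libraries were lower than all 6 other libraries, and r2 was above r1 in every treatment. The log2 fold change with PI3Ki was -2.51 ± 0.15 (SE, n = 2 libraries per group, edgeR adjusted p 1.7e-10). Without the replicate as a block in the fit the edgeR adjusted p was 0.11. With TGFB1 it was -0.14 ± 0.12 (edgeR adjusted p 0.43) and with TGFBRi 0.36 ± 0.11 (edgeR adjusted p 0.11). Of the 5 genes tested, TGFB1 moved 2 and both upward, TGFBRi moved 0, and PI3Ki moved 1 downward. In these libraries melanocyte identity genes summed to 4652 and 4654 CPM in Control, 3310 and 3542 CPM with TGFB1, 4450 and 4456 CPM with TGFBRi and 5902 and 6285 CPM with PI3Ki. Endothelial markers summed to 0.679 and 0.611 CPM in Control and 3.63 and 2.81 CPM with TGFB1, and to at most 0.824 CPM with the inhibitors. The neural crest stem-like melanoma list summed to 160 and 172 CPM in Control and 207 and 212 CPM with TGFB1. Its gene AQP1 had 0.218 and 1.12 CPM in Control against 19.3 and 20.3 CPM. RXRG went the other way, with 11.6 CPM in both Control libraries against 5.25 and 6.55 CPM. Their part in the treatment differences was not tested. Over all 18389 genes tested the share called was 29% with TGFB1, 2.53% with TGFBRi and 12.7% with PI3Ki. At an unadjusted p under 0.05, TGFBRi would count 2 of the 5 genes, NGFR and SORT1, where it would count 2395 of all 18389 genes. In DESeq2 neither of the 2 passed (adjusted p 0.49 and 0.34). NGFR with TGFBRi passed in edgeR with no filter on low counts (adjusted p 0.0244), without r1 of TGFBRi (0.0209) and with equal cell numbers (0.0413).

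NTRK2 and NTRK3 were the genes that rose with TGFB1 over all cells. NTRK2 had 0.243 and 0.262 CPM in r1 and r2 of Control, 0.976 and 0.778 CPM with TGFB1, 0.291 and 0.366 CPM with TGFBRi and 0.285 and 0.278 CPM with PI3Ki. Both TGFB1 libraries lay above the 6 others, and the log2 fold change was 1.77 ± 0.25 (edgeR adjusted p 1.03e-05). NTRK3 rested on few UMIs, 5 and 5 in Control and 21 and 25 with TGFB1, or 0.0640 and 0.0623 CPM against 0.263 and 0.295 CPM. Its log2 fold change was 2.1 ± 0.46 (edgeR adjusted p 0.00114). NTRK2 was highest in drug-susceptible cluster 3, at 2.15 CPM (1.78 to 2.58), and at most 0.873 CPM in any other cluster. Cluster 3 held 3801 cells of the TGFB1 libraries, with 2.05 CPM of NTRK2, and 115 of Control, with 2.66 CPM (5 UMIs). NTRK3 was highest in primed cluster 4, whose cells came mostly from the TGFB1 libraries, at 0.766 CPM (0.524 to 1.08), and at most 0.221 CPM elsewhere.

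The share of primed cells differed between treatments, which the counts over all cells carry with them. Primed cells were 2.26 and 4.47% of cells in r1 and r2 of Control, 29.1 and 31.3% with TGFB1, 2.26 and 4.32% with TGFBRi and 0.647 and 1.21% with PI3Ki. They held 77.4 and 57.7% of the NGFR UMIs in Control, 70.2 and 70.3% with TGFB1, 71.5 and 67.9% with TGFBRi and 15.4 and 35.7% with PI3Ki. In a sum over cells, fewer cells of a type and less RNA per cell cannot be told apart, so the states were also fitted apart.

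In primed cells NGFR was 79.0 and 118 CPM in r1 and r2 of Control and 85.3 and 160 CPM with TGFBRi. With TGFB1 it was 5.27 and 14.3 CPM, and with PI3Ki 14.0 CPM (4 UMIs) and 42.5 CPM. Both TGFB1 and both PI3Ki libraries lay under the lower Control library. The log2 fold change in primed cells was -3.28 ± 0.17 with TGFB1 (edgeR adjusted p 4.62e-19), -1.74 ± 0.25 with PI3Ki (edgeR adjusted p 1.99e-05) and 0.32 ± 0.16 with TGFBRi (edgeR adjusted p 0.58). The PI3Ki value rests on 25 and 70 cells and did not pass without the replicate block (edgeR adjusted p 0.18). An NGFR UMI was found in 38.3 and 37.6% of primed Control cells and in 4.25 and 8.71% of primed TGFB1 cells, with median depths of 12424 and 14535 UMIs against 11098 and 11187 UMIs.

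BDNF in primed cells rested on 3 and 28 UMIs in Control and 13 and 25 UMIs with TGFB1, or 2.24 and 11.3 CPM against 0.646 and 1.12 CPM. The TGFB1 values lay under both Control values, and the replicates of Control differed more from each other than r1 of Control did from r2 of TGFB1. The log2 fold change was -2.80 ± 0.51 (edgeR adjusted p 7.6e-05), and it did not pass the threshold without r2 of Control (-2.33, edgeR adjusted p 0.5) or without r2 of TGFB1 (-0.89, edgeR adjusted p 0.77). With TGFBRi primed cells had 0.667 and 13.2 CPM of BDNF and with PI3Ki 0 and 5.19 CPM, where the 0 in 25 cells allows up to 10.5 CPM by the same limit. SORT1 in primed cells lay between 26.6 and 32.8 CPM in all 8 libraries, with a log2 fold change of 0.00 ± 0.17 with TGFB1. Of the 3 genes tested in primed cells, 2 were lower with TGFB1 than in Control, 1 was lower with PI3Ki and 0 were called with TGFBRi. Of all 10930 genes 13.3, 1.78 and 0.375% were called. Primed cells with TGFB1 lay mostly in another cluster than those of Control, so this comparison does not follow the same cells. At an unadjusted p under 0.05 TGFBRi would count 0 of the 3, with NGFR nearest at 0.0502, where it would count 944 of all 10930 genes.

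The primed cells of the treatments were not the same clusters. With TGFB1, cluster 4 held 1548 of 1577 primed cells in r1 and 1706 of 1757 in r2, while Control had 5 and 6 cells in it. NGFR had 10.2 CPM in cluster 4 and 102 CPM in cluster 10 over all libraries. Within cluster 10 alone NGFR was 84.5 and 113 CPM in Control, 19.6 and 27.6 CPM with TGFB1 (29 and 51 cells), 85.3 and 160 CPM with TGFBRi and 16.4 and 42.7 CPM with PI3Ki. With TGFB1, NGFR in cluster 10 alone had a log2 fold change of -2.10 ± 0.30 (SE, edgeR adjusted p 6.48e-05). Its difference from the value over all primed cells was not tested, and BDNF did not pass there (-1.96, edgeR adjusted p 0.36). The fit on cluster 10 was added after the data were seen.

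**Figure D3:**
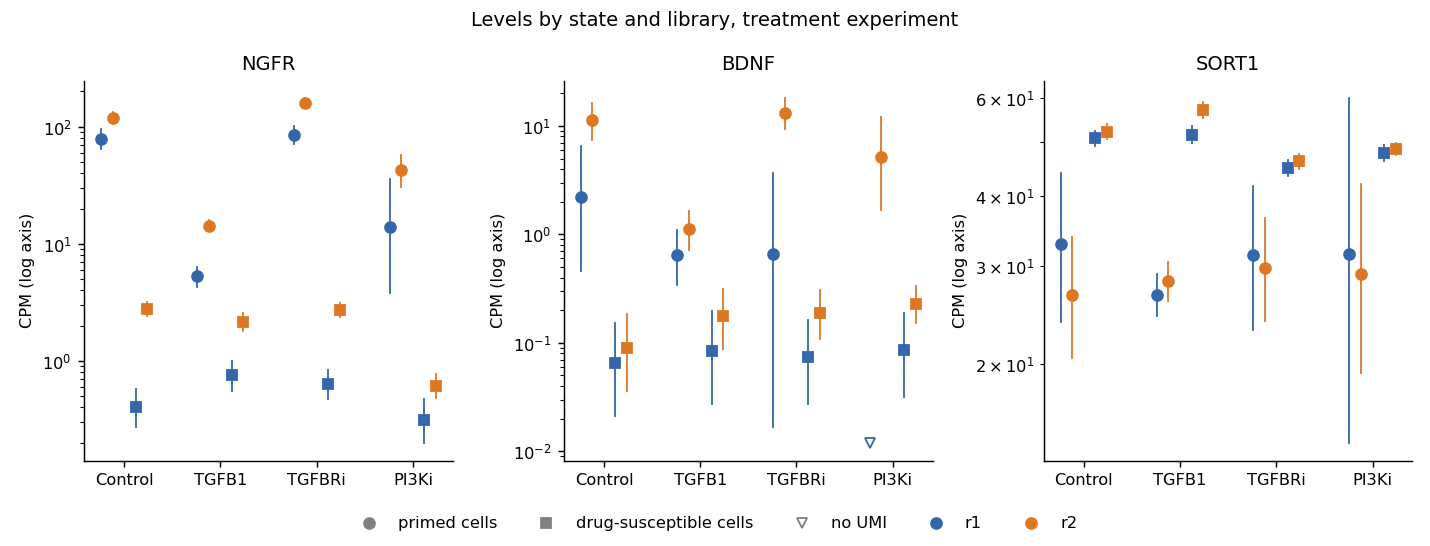
Level of NGFR, BDNF and SORT1 (CPM, log axis) in each library of the treatment experiment, with primed cells as circles and drug-susceptible cells as squares. Lines are 95% exact Poisson intervals and an open triangle marks a group without a UMI. NGFR in primed cells is lower with TGFB1 (5.27 and 14.3 CPM) and PI3Ki (14.0 and 42.5 CPM) than in Control (79.0 and 118 CPM).

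In drug-susceptible cells NGFR had 0.404 and 2.77 CPM in Control, 0.752 and 2.16 CPM with TGFB1, 0.630 and 2.71 CPM with TGFBRi and 0.314 and 0.609 CPM with PI3Ki. The PI3Ki value of each replicate was under the Control value of that replicate, but r2 of PI3Ki lay above r1 of Control. The log2 fold change of -1.67 ± 0.25 (edgeR adjusted p 6.39e-05) did not pass without r2 of Control (-0.81, edgeR adjusted p 0.25) or without r2 of PI3Ki (-0.79, edgeR adjusted p 0.33), nor without the replicate block (edgeR adjusted p 0.33). NTRK2 was higher with TGFB1 in these cells too, from 0.248 and 0.257 CPM to 1.19 and 0.977 CPM (log2 fold change 2.08 ± 0.25, edgeR adjusted p 1.43e-06). As given above, many of these TGFB1 cells lay in a drug-susceptible cluster with few Control cells, where NTRK2 was highest. The part of that change of cluster in the rise was not tested. BDNF lay between 0.0651 and 0.231 CPM in all 8 libraries, and SORT1 between 44.9 and 57.2 CPM. Of 4 genes tested in drug-susceptible cells 1 was higher with TGFB1, 1 was lower with PI3Ki and 0 were called with TGFBRi, where 14.9, 12.1 and 2.81% of 17914 genes were called. Primed cells were 0.647 and 1.21% of cells with PI3Ki against 2.26 and 4.47% in Control. Free RNA was not measured, and its part in the lower NGFR of these cells was not tested. At an unadjusted p under 0.05 TGFBRi would count SORT1 alone, with a log2 fold change of -0.16 ± 0.06. The same threshold would count 2388 of all 17914 genes.

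The effects of TGFB1 in the 2 states were compared in 1 fit. The states were called from the same counts after treatment. Primed cells with TGFB1 lay mostly in another cluster than those of Control, so the difference includes that change of cluster. The log2 fold change in primed minus that in drug-susceptible cells was -3.09 ± 0.24 for NGFR (edgeR adjusted p 3.38e-35). For BDNF it was -3.52 ± 0.83 (edgeR adjusted p 0.000594). This BDNF difference did not pass without r2 of Control, without r2 of TGFB1 or without the library as a block (edgeR adjusted p 0.078). These are 2 of 5 genes, and 9.98% of all 18502 genes tested were called in that comparison. SORT1 had a difference of 0.03 ± 0.17.

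**Figure D4:**
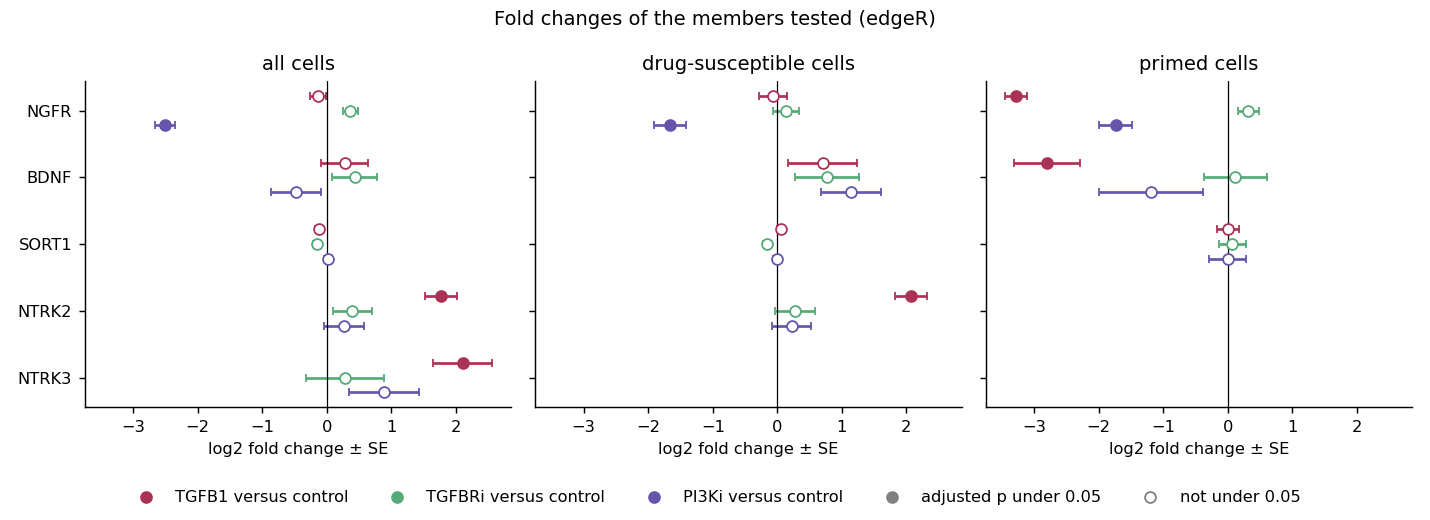
Log2 fold changes against Control with standard errors (edgeR, n = 2 libraries per group) in all cells, drug-susceptible cells and primed cells. Filled points have an adjusted p under 0.05, and genes with too few counts for a fit have no point. NGFR is lower with PI3Ki in all 3 panels and with TGFB1 in the panel of primed cells.

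The rest of the pathway was read from 7 lists of 47 genes, of which 41 were tested over all cells and in drug-susceptible cells and 33 in primed cells. With TGFB1 over all cells 12 rose and 7 fell, or 46.3% of the 41, where 29% of all genes were called, with a median log2 fold change of 0.02 against 0.01 over all genes. In drug-susceptible cells 8 rose and 3 fell, or 26.8% against 14.9% of all genes. Among receptors and co-receptors 3 of 5 fell, the sortilin relative SORL1 (-0.53), LINGO1 (-0.52), a co-receptor of p75NTR in complexes with the Nogo receptor, and RTN4R (-0.39), which encodes the Nogo receptor. In drug-susceptible cells only SORL1 of these passed (-0.54 ± 0.08, edgeR adjusted p 1.71e-05), with LINGO1 at -0.21 (0.51) and RTN4R at -0.10 (0.53), and in primed cells RTN4R had -1.29 (edgeR adjusted p 0.071), SORL1 0.35 (0.34) and LINGO1 was not tested. Among pro-neurotrophin processing genes 2 of 4 rose, PLAT, which encodes the plasminogen activator tPA, by 0.84 ± 0.07 (edgeR adjusted p 1.88e-09) and FURIN, a pro-protein convertase, by 0.82 ± 0.08 (edgeR adjusted p 1.7e-08). PLAT had 31.8 and 40.0 CPM in Control and 62.8 and 66.8 CPM with TGFB1, and FURIN 12.7 and 13.0 CPM against 23.0 and 22.8 CPM, with no overlap for either. Within drug-susceptible cells PLAT rose by 0.998 ± 0.07 and FURIN by 0.46 ± 0.08, and within primed cells, which are other clusters with TGFB1 than in Control, by 0.74 ± 0.18 and 1.13 ± 0.19.

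Of 9 genes of p75NTR adaptors 2 rose and 1 fell with TGFB1 over all cells (33.3%, near the 29% of all genes), and of 16 Trk adaptors and effectors 5 rose and 2 fell (43.8%). Among these was SHC2 (2.67 ± 0.64), which had only 0.0256 and 0.0249 CPM in Control and 0.188 and 0.153 CPM with TGFB1, and the docking protein gene GAB2 (-0.71). With TGFB1 GAB2 was lower by 0.43 in drug-susceptible and by 0.88 in primed cells. Among neurotrophin-induced genes EGR2 (1.05) and EGR1 (0.41), which encode immediate-early transcription factors, rose and VGF, which encodes a secreted neuropeptide precursor, fell (-0.97 ± 0.13). EGR1 did not pass within either state (0.09 in drug-susceptible and 0.13 in primed cells, edgeR adjusted p 0.5 and 0.68). EGR2 rose in drug-susceptible cells (1.15 ± 0.32) and VGF fell there (-0.72 ± 0.12). In primed cells VGF was lower than in Control by 2.57 on the log2 scale with TGFB1 (SE 0.16, edgeR adjusted p 3.9e-16). With PI3Ki it was lower by 0.78 (SE 0.17, edgeR adjusted p 0.00423). With TGFBRi over all cells 3 of 41 rose and 0 fell, SORCS1 (0.86), a sortilin relative, VGF (0.86) and EGR1 (0.39), which is 7.32% against 2.53% of all genes. With PI3Ki 2 rose and 3 fell, or 12.2% against 12.7% of all genes. In primed cells 3 of 33 were higher and 3 lower with TGFB1 (18.2% against 13.3%), between cells that are mostly of different clusters. With PI3Ki 1 was lower (3.03% against 1.78%) and with TGFBRi 0 were called (against 0.375%).

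ATAC-seq compared the chromatin of cells sorted by NGFR and EGFR protein, so for NGFR the sort used the product of the gene that is described. The NGFR start and the 2 upstream regions printed above had higher values in NGFR-sorted cells than in the other sorts, and the loci of the 5 other genes held no region that passed over all regions. Fold enrichment, the height of a peak over local background as the peak caller gave it, at the NGFR start was 16.7, 14.0 and 14.6 in NGFR-High and 18.2, 14.2 and 13.9 in EGFR-NGFR-High libraries. It was 5.98, 8.98 and 10.3 in EGFR_High and 5.82, 7.54 and 9.68 in Mix libraries. The 6 NGFR-sorted libraries all lay above the 6 others. The difference of mean log2 fold enrichment was 0.95 (two-sided exact permutation test, p = 0.00216, the smallest that 6 against 6 libraries allow, and 0.026 after Benjamini-Hochberg adjustment over 12 tests of 6 starts and 2 sorts). Among these 12, the tests at the starts of BDNF, NTF3 and NTRK3 could not vary, since no library had a peak there, and they raise the adjusted values. Between NGFR-High and Mix alone the difference at the NGFR start was 1.0 with an exact permutation p of 0.1, the smallest that 3 against 3 libraries allow.

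A region was kept where at least 3 libraries had a peak, so a region found in 1 sort alone enters through that sort and has a set value of 1 elsewhere. The test was therefore also made on the 78238 regions with a peak in all 12 libraries, an alternative added after the data were seen. In the NGFR gene and 50000 bases on either side, 4 of the 8 such regions were higher in NGFR-sorted libraries in limma and 0 were lower, where 10.6% of all such regions were called. Over all 151823 regions 6.64% (10082) were called, a count that was 1759 to 3039 with 1 replicate number left out, and at NGFR 8 of 16 were. Of these 8, 3 had a peak in fewer than 3 of the 6 other libraries and passed the filter through the NGFR-sorted libraries alone, so they are given as values with no test. The 8 of 16 include them and are therefore not set against the 6.64%. With the EGFR sort 0 of 16 were called, where the share over all regions was 0.031% (47 regions, and 338 to 382 with 1 number left out). At an unadjusted p under 0.05 the EGFR sort would count 4 of the 16, where it would count 18489 of all 151823 regions. Over all regions the NGFR sort raised 9550 and lowered 532 of those called (94.7% higher), with a median difference of 0.17 on the log2 scale. With quantile normalization the split was 5133 and 1697 (75.2% higher) and the median -0.0096.

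The region 23638 bp upstream had a peak in all 6 NGFR-sorted libraries and in none of the 6 others. Its fold enrichment was 11.5, 5.69 and 6.58 in NGFR-High and 7.74, 8.98 and 6.95 in EGFR-NGFR-High libraries. The region 44024 bp upstream had 14.3, 15.3 and 14.6 in NGFR-High and 22.9, 15.1 and 18.4 in EGFR-NGFR-High libraries. It had no peak, 3.78 and 5.87 in EGFR_High libraries and no peak in Mix. The region 38029 bp upstream, printed above, had 27.8, 13.6 and 16.9 in NGFR-High and 37.5, 17 and 20.8 in EGFR-NGFR-High libraries, against 9.39, 6.15 and 7.34 in EGFR_High libraries. In Mix it had a peak of 3.77 in 1 of 3 libraries (difference 2.62 ± 0.46 with no peak set to 1, limma adjusted p 0.00924).

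The other printed region, at 40730 bp upstream, was open in all 12 libraries, with 43.3, 44.2 and 43.3 in NGFR-High, 41.1, 27.9 and 34.2 in EGFR-NGFR-High, 12.8, 14.7 and 10.8 in EGFR_High and 8.96, 14.6 and 10.6 in Mix libraries. Its difference was 1.70 ± 0.17 (limma adjusted p 0.000227 over all regions and 4.72e-05 over those in all 12 libraries). The other 3 regions called among those in all 12 libraries were at the start (0.95 ± 0.17), 713 bp into the gene (0.86 ± 0.12) and 19511 bp from the start (0.60 ± 0.12), where the antisense gene NGFR-AS1 overlaps. ATAC-seq does not tell strands apart, so the last region cannot be assigned to either gene. The 3 other upstream regions, at 18366, 13409 and 12496 bp, had peaks in 3, 4 and 4 of the 12 libraries, of which 2, 0 and 0 were outside the NGFR sort. The region 2215 bp into the gene had peaks in 5 NGFR-sorted libraries, of 6.76, 5.69 and 4.70 in NGFR-High and 4.73 and 3.47 in EGFR-NGFR-High, and in no other library.

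**Figure D5:**
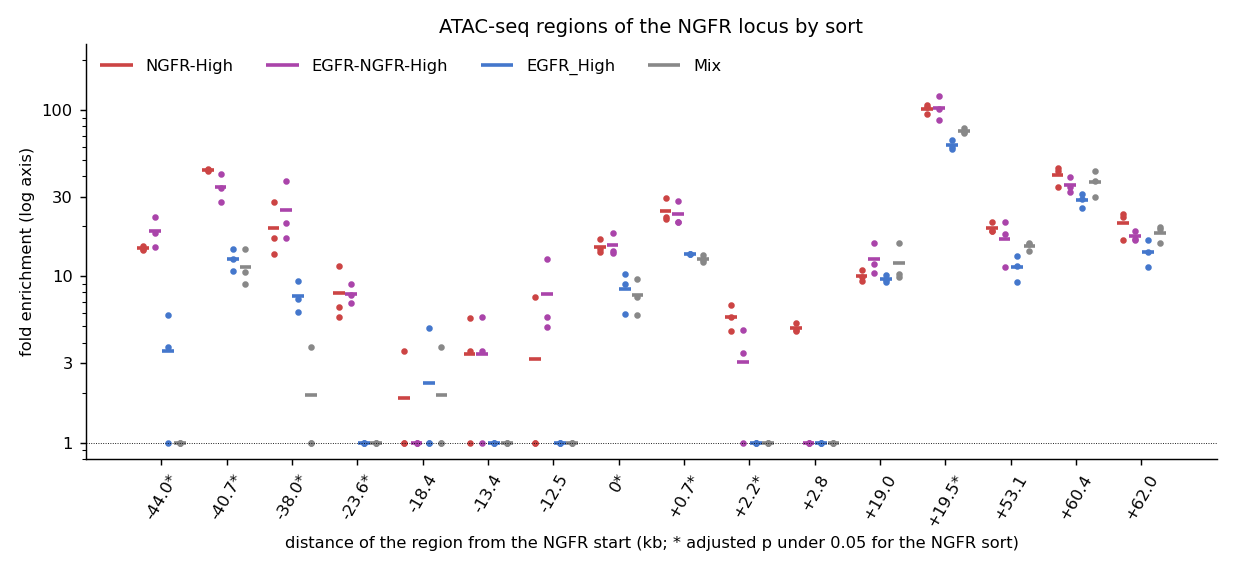
Fold enrichment (log axis) of the 16 open regions in and around NGFR, ordered by distance from its start in kb, with points for libraries and lines for the means of 3 libraries per sort. Libraries without a peak are set to 1, the dotted line. An asterisk marks an adjusted p under 0.05 for the NGFR sort in limma. At regions that passed the filter through the NGFR-sorted libraries alone it is not read as a test. NGFR-High and EGFR-NGFR-High libraries lie above the others at 40730 and 38029 bp upstream and at the start, while the regions from 53085 bp onward overlap between sorts.

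At the other genes no region passed over all regions. The 9 regions of BDNF, 9 of NTF3, 20 of SORT1, 23 of NTRK2 and 12 of NTRK3 held 0 called in limma in either sort, against 6.64% and 0.031% over all regions. At an unadjusted p under 0.05 these 73 regions would count 10 for the NGFR sort and 15 for the EGFR sort, 5 and 9 of them at NTRK2. Over all 151823 regions the same threshold would count 36790 for the NGFR sort and 18489 for the EGFR sort. With quantile normalization, 1 region of NTRK2 and 1 of NTRK3 passed for the NGFR sort, where 6830 of all 151823 regions passed. Among regions with a peak in all 12 libraries, 1 of 14 at SORT1 and 1 of 12 at NTRK2 passed for that sort, where 10.6% of all such regions did. The SORT1 region lies 92876 bp from the start, beyond the gene and overlapping MYBPHL, and was higher (0.71 ± 0.18, limma adjusted p 0.0187). The NTRK2 region is intronic, 229738 bp from the start, and was lower (-0.71 ± 0.20, limma adjusted p 0.0294), with 13.4, 15.1 and 14.5 in Mix and 4.77 to 8.04 in all 9 other libraries. The SORT1 start had a fold enrichment of 55.6 to 74.9, and the NTRK2 start of 11.3 to 21.1, with an NGFR-sort difference of 0.39 (exact permutation p = 0.013, adjusted 0.0693). The EGFR-sort difference at the SORT1 start was -0.19 (exact permutation p = 0.0173, adjusted 0.0693). Neither passed over the 12 tests, of which those at the starts of BDNF, NTF3 and NTRK3 could not vary. These adjusted values are therefore larger than over the tests that could vary, and whether either start differs is not settled. In hg38, SORT1 lies on chromosome 1 from 109309568 to 109397918 (reverse strand) and NTRK2 on chromosome 9 from 84668375 to 85095751 (forward strand). No peak was found within 500 bases of the outermost annotated start of BDNF (chromosome 11, 27654893 to 27722058, reverse strand), NTF3 (chromosome 12, 5432108 to 5521536, forward strand) or NTRK3 (chromosome 15, 87859751 to 88256791, reverse strand). BDNF has 11 annotated transcript starts, and an open region at one of them, 22297 bp into the gene (chromosome 11, 27698776 to 27699761, exonic), had 21.5, 15.3 and 18.8 in NGFR-High and 12.5, 14.1 and 23.2 in Mix libraries, a range in which the sorts overlap (difference 0.07 ± 0.19).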

How the data were processed

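scRNA-seq was measured in WM989 and WM983B cells and ATAC-seq in sorted WM989 cells. The authors aligned the 10x reads with Cell Ranger to hg38, filtered cells with Seurat and deposited counts of UMIs per gene and cell, with a table of their clusters, states, cell cycle phases and percent of mitochondrial counts per cell. For ATAC-seq the authors aligned reads with Bowtie2 2.3.4.1, used SAMtools 1.1 and called peaks per library with MACS2 2.1.1.20160309 on hg38. The deposited peak lists give the fold enrichment as a ratio over local background and the −log10 of p and q. Doublets were not called here beyond the authors' filters.

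Counts were summed per library and state (at least 20 cells) and tested with edgeR 4.0.16 (quasi-likelihood, TMM, low counts filtered, replicate as a block, all 4 treatments in 1 fit) in R 4.3.3. The fit of the difference of states took the library as the block instead. Same-numbered libraries deviated together, with r from 0.256 to 0.365 over 6 pairs, and the treatments of a replicate share a starting culture. Calls used an adjusted p under 0.05 over all genes. Shares of cells were also taken after thinning to 10000, 30000 or 5000 UMIs per cell, by experiment, which left out 33 cells of the third. ATAC regions present in at least 3 libraries were joined with bedtools 2.31.1, and log2 fold enrichment, with 1 where a library had no peak, was tested with limma 3.58.1. At a gene start (500 bases either side, GENCODE v44) the exact permutation test was used. The fits across all genes and all regions were tested on simulated data. DESeq2 1.42.0, no block, no filter, equal cell numbers, quantile normalization, stricter peaks and each replicate left out were tried as alternatives.

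The 6 genes and 7 pathway lists were chosen with earlier results of these data known. Genes named are these 6, up to 4 called genes of the largest change per list, the 5 most alike in cluster profile (at least 5 CPM in 1 cluster), and the start and up to 3 called regions per locus. The regions beyond these at NGFR were named after their values were seen. The comparisons of TGFBRi and PI3Ki in primed cells, the fit on cluster 10 and that on regions with a peak in all 12 libraries were also added after the data were seen. Some genes of these lists are counted in the totals and are not reported here by name.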

Additional observations from a re-analysis of the deposited data

Results flagged for a closer look

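A difference of effects between states was found for 2 genes. Primed cells with TGFB1 lay mostly in another cluster than those of Control, so the difference includes that change of cluster. For NGFR, the TGFB1 effect in primed cells minus that in drug-susceptible cells was -3.09 ± 0.24 on the log2 scale (edgeR adjusted p 3.38e-35), with both TGFB1 libraries lower than both Control libraries in primed cells. For BDNF the same difference was -3.52 ± 0.83 (edgeR adjusted p 0.000594). It did not pass without r2 of Control, without r2 of TGFB1 or without the library as a block (edgeR adjusted p 0.078). In 34 groups of 4 to 10 samples tested for a sample far from the others, 0 were found.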

How the results depend on the processing

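Of the results for single genes, 484 stayed on the same side of the threshold, which includes uncalled values whose sign changed. The call was lost in 11 and gained in 3, and 0 reversed where either value was called. NGFR with TGFBRi over all cells gained it with no filter on low counts (adjusted p 0.0244), without r1 of TGFBRi (0.0209) and with equal cell numbers (0.0413). The counts of genes called ranged, with each library left out, from 3164 to 6377 for TGFB1, 168 to 1146 for TGFBRi and 719 to 3298 for PI3Ki over all cells. In drug-susceptible cells they ranged from 988 to 3722, 206 to 1247 and 632 to 3286, in primed cells from 584 to 1726, 17 to 63 and 96 to 239, and for the difference of states from 825 to 2126. The lowest counts came without r1 of TGFB1 for TGFB1, without r2 of Control for TGFBRi over all and drug-susceptible cells, and without r2 of PI3Ki for PI3Ki there. The ATAC counts, 10082 for the NGFR sort and 47 for the EGFR sort with all libraries, ranged from 1759 to 3039 and from 338 to 382. Without the replicate block the counts were 40 for TGFBRi and 649 for PI3Ki over all cells, 1189, 47 and 570 for TGFB1, TGFBRi and PI3Ki in drug-susceptible cells, and 9 and 87 for TGFBRi and PI3Ki in primed cells. The difference of states gave 775 without the library as a block. The NGFR start of the ATAC libraries had an exact p of 0.00926 with the replicate block, and NGFR-High against Mix 0.25, although their numbers do not pair (r from -0.011 to 0.10). With each number left out the differences ranged from 0.64 to 1.17 and from 0.74 to 1.21, and in a window of 1000 bases they were 1.51 and 1.71. With no filter on low counts TGFBRi over all cells gave 748. DESeq2 gave 329 for TGFBRi in drug-susceptible cells and 693 and 13 for TGFB1 and TGFBRi in primed cells. On cluster 10 alone, with fewer cells, TGFB1, TGFBRi and PI3Ki gave 257, 5 and 104. The EGFR sort gave 93 regions with quantile normalization, 29 with a −log10 q of at least 5 and 87 among regions with a peak in all 12 libraries. The log2 ratio of states in WM989 (6.87 for BDNF) was 5.31 as a mean of wells and 7.28 as a mean per cell, and that of NTRK2 (-0.28) and NTRK3 (0.54) was -1.05 and -0.013 as a mean of wells. With a replicate left out it was 3.84 to 6.13 for NGFR, 6.80 to 7.06 for BDNF, -1.19 to -1.07 for SORT1, -0.77 to 0.16 for NTRK2, which changes sign, and 0.11 to 0.82 for NTRK3. The causes were not tested. Genes with few UMIs (NTF3, NTRK3) are limited by depth.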
